A study of Rattus norvegicus with 24 samples.

Results

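The NMDA receptor is built from subunits encoded by 7 genes, Grin1, Grin2a, Grin2b, Grin2c, Grin2d, Grin3a and Grin3b. They were taken by symbol from the deposited table of 20318 features, and all 7 were found. The 24 RNA-seq libraries came from hippocampi of female rats that were 6 months old when the experiment began, in 4 groups. Prevention rats were ovariectomised and received estradiol (E2) for 5 weeks (n = 5). Treatment rats were ovariectomised and received vehicle for 3 weeks and then E2 for 2 weeks (n = 5). OVX rats were ovariectomised and received vehicle for 7 weeks (n = 7), while the ovaries were left in place in SHAM rats, which had the same 7 weeks of vehicle (n = 7). The labels thus give the E2 groups a shorter course, 5 weeks in all, than the vehicle groups; they name neither the strain nor the dose of E2. Nothing in the labels says whether any 2 libraries share an animal, so p-values measure the spread between these libraries.

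The NMDA receptor is a glutamate-gated channel that admits calcium when glutamate arrives while the postsynaptic membrane is depolarised, and it triggers long-term potentiation in the hippocampus. The GluN1 subunit, from Grin1, is obligatory and binds the co-agonists glycine or D-serine. GluN2 subunits bind glutamate and set the kinetics of the channel: GluN2A and GluN2B dominate in hippocampal pyramidal cells, GluN2C is best known from cerebellar granule cells and glia, and GluN2D from thalamus, brainstem and interneurons. GluN3 subunits bind glycine and lower calcium entry. Estradiol is known to raise spine density and NMDA receptor binding in CA1 of ovariectomised rats.

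Column totals ran from 35374933 to 38830742 normalised counts, and the reads behind them, roughly estimated from the value of 1 read, from about 26600000 to 53300000. Hippocampal markers were present in every library. Slc17a7 of glutamatergic neurons ran from 47185 to 76330 normalised counts, Wfs1 of CA1 from 6917 to 22620 and Prox1 of dentate granule cells from 2035 to 4180. Tdo2, also listed for granule cells, was at 0 in 16 libraries. The cerebellar granule cell markers Gabra6, Fat2 and Cbln3 stayed at or below 30.2 in every library. In 7 libraries (all 5 Prevention libraries and Treatment replicates 1 and 2, called the high set) the feature LOC257642 lay between 16.8 and 19.7 on the log2 scale. In the other 17 (the low set) it lay between 14.0 and 15.2. No OVX or SHAM library is in the high set and no Prevention library in the low set, so for these groups set and group cannot be told apart except through the divided Treatment group. Estimated reads were about 39400000 to 53300000 in the high set and 26600000 to 40200000 in the low set. A score of 8 thalamic markers (their mean log2 value) lay between 9.79 and 10.1 in 5 libraries, namely Prevention replicates 1 and 4, Treatment replicate 6, OVX replicate 2 and SHAM replicate 5. It was at most 8.95 in the other 19. In bulk tissue, fewer cells of a type and less RNA per cell cannot be told apart.

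Grin1, which encodes the obligatory GluN1 subunit, was the steadiest member. Its normalised counts in Prevention were 23793, 24593, 24473, 22755 and 25025. In Treatment they were 21127, 25092, 23504, 21215 and 23738. In OVX the lowest, median and highest were 21358, 23711 and 25453, and in SHAM 22550, 25085 and 26636. All 4 groups overlapped, and the highest of the 24 libraries was 1.26 times the lowest. Of 380 features with a mean within 2-fold of that of Grin1, 21.8% had a smaller spread within groups. The order of the means was SHAM, Prevention, OVX, Treatment, and no neighbours in it differed beyond their spread.

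**Figure D1:**
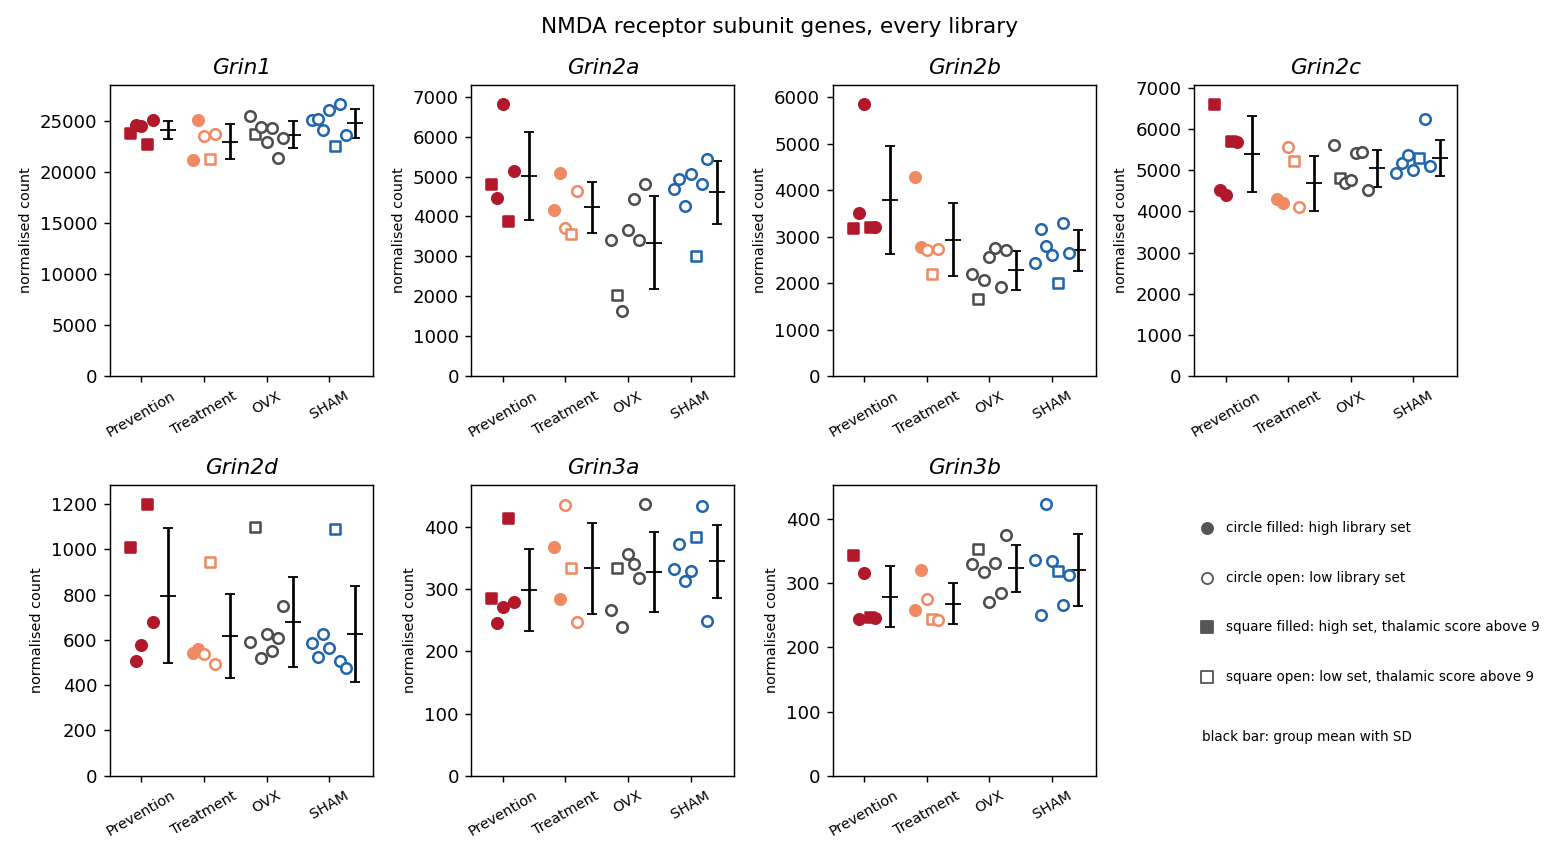
Normalised counts of the 7 NMDA receptor subunit genes (y axes, from 0) in each library of Prevention, Treatment, OVX and SHAM (x axes), with the group mean and SD in black. Filled symbols are the 7 libraries of the high set and squares the 5 libraries with a thalamic score above 9; Grin1 stays between 21127 and 26636, while the 5 squares are the highest values of Grin2d in their groups.

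Grin2a, which encodes the GluN2A subunit of mature synapses, varied much more. Prevention libraries had 4806, 4471, 6818, 3875 and 5134 normalised counts. Treatment libraries had 4152, 5087, 3705, 3566 and 4642. OVX ran from 1625 through a median of 3417 to 4812, and SHAM from 3013 through 4813 to 5448. The 2 lowest libraries of the series were OVX replicates 3 and 2, at 1625 and 2034, and the highest was Prevention replicate 3. OVX overlapped each other group. From high to low the means ran Prevention, SHAM, Treatment, OVX. They were 5021 ± 1107 in Prevention, 4230.5 ± 638 in Treatment, 3344 ± 1166 in OVX and 4604 ± 789 in SHAM (SD).

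Grin2b, which encodes GluN2B, the subunit of slower currents that binds CaM kinase II, had 3189, 3497, 5850, 3206 and 3212 normalised counts in Prevention. Treatment libraries had 4272, 2771, 2703, 2188 and 2739. OVX ran from 1664 through a median of 2204 to 2755, and SHAM from 2004 through 2655 to 3287. Every Prevention library lay above every OVX library. The highest 2 libraries, Prevention replicate 3 and Treatment replicate 1, were also the 2 with the highest LOC257642, at 868948 and 728400 normalised counts against at most 159539 in any other library. From high to low the means ran Prevention, Treatment, SHAM, OVX. They were 3791 ± 1158 in Prevention, 2935 ± 785 in Treatment, 2269 ± 418 in OVX and 2705 ± 438 in SHAM (SD).

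Loss of the ovaries was examined by setting OVX against SHAM. Changes are log2 differences from a limma fit over 16119 features with a mean of at least 10, positive where the first-named group is higher. None of the 7 members passed the adjusted threshold of 0.05, where limma called 0% of all features and 6.25% had an unadjusted p under 0.05. Grin2a gave the lowest change, -0.53 (SE 0.19, 95% interval -0.92 to -0.14, unadjusted p = 0.0106, adjusted p = 0.795), and was the 1 member under that unadjusted level. With 1 library left out its change ran from -0.63 to -0.37, the latter without OVX replicate 3 (adjusted p = 0.981). Grin2b had -0.26 (SE 0.15, -0.57 to 0.05, adjusted p = 0.832) and Grin1 -0.07 (SE 0.05, adjusted p = 0.864). The median over the members was -0.07, beside 0.0043 over all features.

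E2 throughout the course was examined by setting Prevention against OVX. None of the 7 members passed, where limma called 49 features, or 0.304%, and 18.6% had an unadjusted p under 0.05. Grin2b had a change of 0.72 (SE 0.17, 95% interval 0.38 to 1.06), with 5 of 5 Prevention libraries above all OVX libraries. Its adjusted p was 0.0532 by limma, just over the threshold, and its unadjusted p of 0.000219 ranked 66 of 16119. Of all features tested, 1.2% had Prevention above OVX with no overlap. Grin2a had a change of 0.65 (SE 0.21, 0.22 to 1.08, adjusted p = 0.107). Those 2 were the members under the unadjusted level. The other changes ran from -0.22 for Grin3b to 0.19 for Grin2d, with Grin1 at 0.03. The median over the members was 0.08, beside 0.00081 over all features.

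The changes of Grin2b and Grin2a differed between fits with library set or thalamic terms. Within groups, the set effect (high minus low) was 0.44 for Grin2b (SE 0.27) and 0.22 for Grin2a (SE 0.36). Only the divided Treatment group informs it, so the term widens the SE. For Grin2b its high-set libraries had 4272 (replicate 1) and 2771 (replicate 2) normalised counts. Its low-set libraries had 2703, 2188 and 2739, so replicate 1 alone stood apart. With the set as a term, the change of Grin2b in Prevention against OVX was 0.27 (SE 0.29, adjusted p = 0.999) and that of Grin2a 0.43 (SE 0.39, adjusted p = 0.999). With the thalamic score as a covariate they were 0.78 for Grin2b (SE 0.13, adjusted p = 0.00872) and 0.71 for Grin2a (SE 0.19, adjusted p = 0.0428), and both passed. In that fit limma called 532 of 16119 features, against 49 without the covariate. An unadjusted p under 0.05 was held by 3540 features, against 3006 without it. Without the 5 libraries of high thalamic score, a choice made after seeing the data, neither passed, with 0.78 for Grin2b (adjusted p = 0.177) and 0.67 for Grin2a (adjusted p = 0.232). With set and score together, a fit chosen after seeing the data, Grin2b had 0.50 (SE 0.25, adjusted p = 0.984) and Grin2a 0.65 (SE 0.37, adjusted p = 0.984). With 1 library left out the change of Grin2b ran from 0.55 to 0.77, the former without Prevention replicate 3 (adjusted p = 0.147). Summed thalamic markers ran from 2634 through a median of 3421 to 15330 in Prevention and from 2177 through 4850 to 12064 in OVX.

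**Figure D2:**
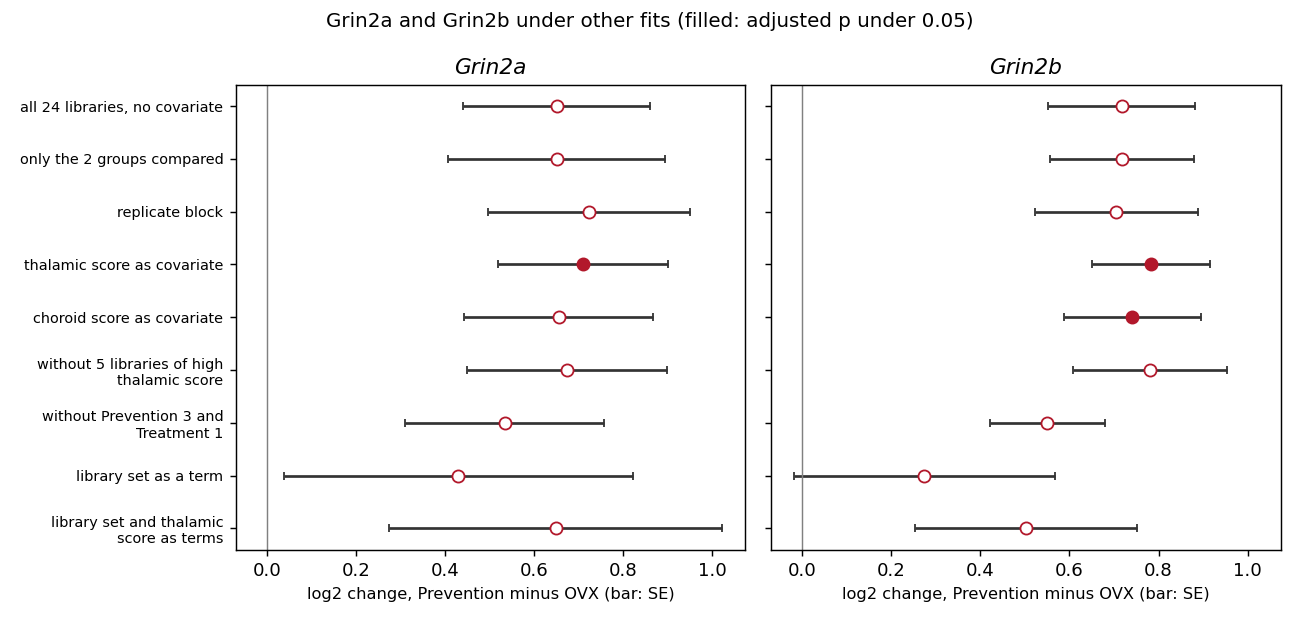
Log2 change of Grin2a and Grin2b, Prevention minus OVX (x axis, bars are SE), under 9 fits (rows), with filled points where the adjusted p is under 0.05. All changes are positive, and the smallest, 0.43 for Grin2a and 0.27 for Grin2b, come with the library set as a term.

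E2 after a period of vehicle was examined by setting Treatment against OVX. None of the 7 members passed, where limma called 0% of features and 7.19% had an unadjusted p under 0.05. Grin2a had a change of 0.42 (SE 0.21, 95% interval -0.02 to 0.85, adjusted p = 0.699) and Grin2b 0.36 (SE 0.17, 0.02 to 0.70, adjusted p = 0.690). Grin3b, which encodes a glycine-binding GluN3 subunit, had -0.27 (SE 0.12, -0.51 to -0.02, adjusted p = 0.690). Grin2b and Grin3b were the members under the unadjusted level. With 1 library left out Grin2a ran from 0.26 (without OVX replicate 3) to 0.52, and Grin2b from 0.21 (without Treatment replicate 1) to 0.45. Within the low set, with 3 Treatment libraries, Grin2a had 0.33 (SE 0.26), Grin2b 0.18 (SE 0.15) and Grin3b -0.34 (SE 0.13), each with an adjusted p of 1. The 3 comparisons with OVX share its 7 libraries, so their changes are not independent.

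The 2 E2 schedules were compared by setting Treatment against Prevention. None of the 7 members passed, and none had an unadjusted p under 0.05, where limma called 0% of features and 5.38% had one. Grin2b had a change of -0.36 (SE 0.18, 95% interval -0.73 to 0.01, adjusted p = 0.918), Grin2c -0.20 (SE 0.10, -0.40 to 0.01) and Grin2d -0.33 (SE 0.24, -0.83 to 0.17). With 1 library left out the change of Grin2b ran from -0.51 to -0.19, the latter without Prevention replicate 3. That of Grin2c ran from -0.26 to -0.12, the latter without Prevention replicate 1. For Grin2d it ran from -0.50 to -0.16, the latter without Prevention replicate 4. Over 15 fits other than leaving out 1 library, the change of Grin2d ran from -0.45 to -0.05. Within the high set, with 2 Treatment libraries, Grin2b had -0.096 (SE 0.26). These intervals do not show that the 2 schedules act alike.

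**Figure D3:**
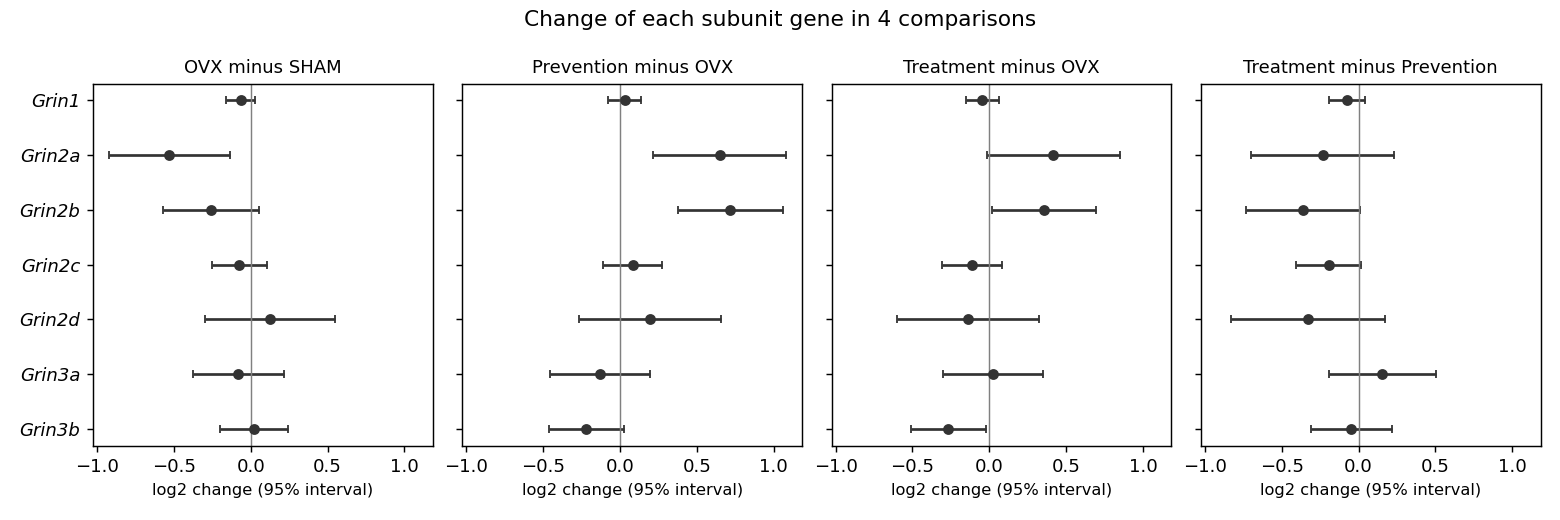
Log2 change with its 95% interval (x axis) of each subunit gene (rows) in the 4 comparisons (panels). In Prevention minus OVX, Grin2b is at 0.72 and Grin2a at 0.65, and in OVX minus SHAM Grin2a is at -0.53, while Grin1 stays between -0.08 and 0.03.

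Grin2a and Grin2b varied together but not in fixed proportion. With the group means subtracted, their log2 values over the 24 libraries had a Pearson r of 0.61 and a Spearman rho of 0.69. Over the 19 libraries of low thalamic score r was 0.41. The libraries share depth, set and tissue makeup, and these values are a description. The log2 ratio of Grin2a to Grin2b averaged 0.42 ± 0.20 in Prevention, 0.55 ± 0.37 in Treatment, 0.49 ± 0.42 in OVX and 0.76 ± 0.21 in SHAM (SD). Transcript lengths were not used, so the ratio is read between libraries and not as a proportion of subunits. It ran from 0.55 to 1.04 in SHAM and overlapped between all groups. Its lowest 2 values were -0.35 in OVX replicate 3 and -0.04 in Treatment replicate 1. OVX replicate 3 combined the lowest Grin2a of the series with 2074 for Grin2b, and Treatment replicate 1 combined 4152 for Grin2a with the second-highest Grin2b.

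**Figure D4:**
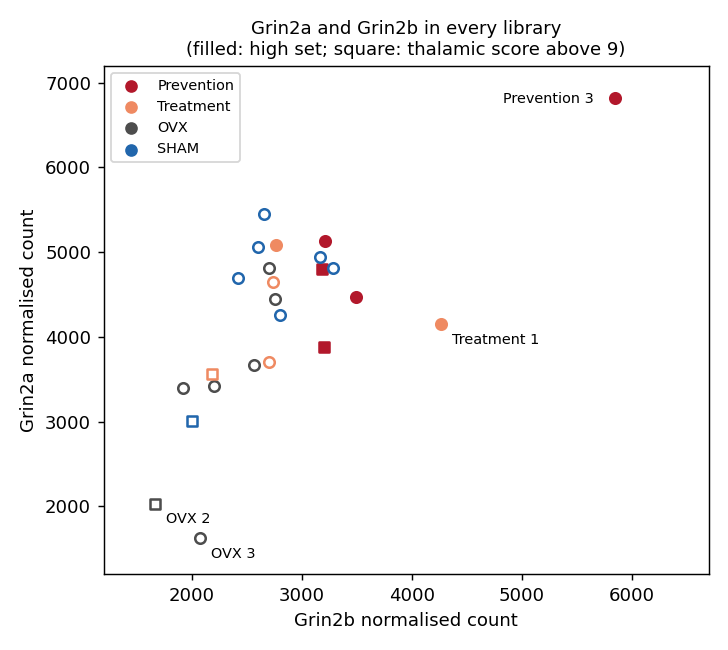
Normalised counts of Grin2a (y axis) against Grin2b (x axis), 1 point per library, coloured by group, with filled symbols for the high set and squares for a thalamic score above 9. Prevention replicate 3 is the highest for both genes, at 6818 for Grin2a and 5850 for Grin2b, and OVX replicate 3 has the lowest Grin2a, 1625.

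Grin2d, which encodes GluN2D, a subunit of slow, weakly magnesium-blocked channels, followed the thalamic score. Prevention libraries had 1010.2, 509, 576, 1202 and 679 normalised counts, and Treatment libraries 541, 559, 540, 946 and 495. OVX ran from 519 through a median of 609 to 1098, and SHAM from 476 through 565 to 1092. The 5 libraries with a thalamic score above 9 held 946 to 1202, and the other 19 held 476 to 750, with no overlap. Within groups, Grin2d was 0.46 higher on the log2 scale per unit of the score (SE 0.04), and the residual SD was 0.15 with the score in the model, against 0.42 without it. In those 5 libraries Tcf7l2, a thalamic transcription factor, measured 1573 to 3357, against 278 to 773 in the others. Of the other markers in the score, Prkcd, Slc17a6, Ramp3 and Synpo2 were likewise higher in those 5 libraries with no overlap. The rest overlapped: Lef1 (444 to 987 against 220 to 484), Zic1 (1211 to 2172 against 237 to 1613) and Tnnt1 (20.4 to 137 against 21.5 to 150).

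No change of Grin2d passed. Its changes were 0.13 in OVX minus SHAM (SE 0.20), 0.19 in Prevention minus OVX (SE 0.22) and -0.14 in Treatment minus OVX (SE 0.22). Without the 5 libraries, a choice made after seeing the data, Grin2d averaged 588 ± 85.8 in Prevention (n = 3), 534 ± 27.3 in Treatment (n = 4), 608 ± 80.0 in OVX (n = 6) and 547 ± 55.0 in SHAM (n = 6). The change in Prevention minus OVX was then -0.049 (SE 0.11, adjusted p = 0.884), of the opposite sign.

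**Figure D5:**
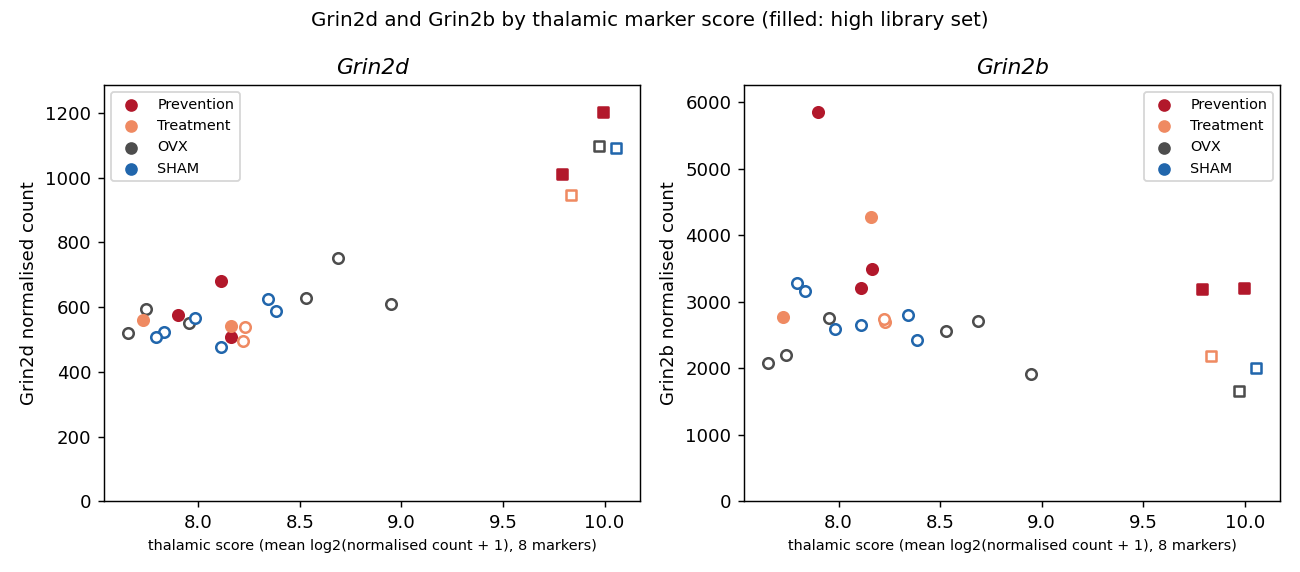
Normalised counts of Grin2d (left) and Grin2b (right) against the thalamic score, the mean log2(normalised count + 1) of 8 markers (x axis), 1 point per library, with filled symbols for the high set and squares for a score above 9. The 5 squares hold 946 to 1202 for Grin2d, above the 476 to 750 of the other 19 libraries.

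The other subunits varied with the score by less. Per unit of the thalamic score within groups, Grin2b was lower by a slope of -0.22 (SE 0.06), Grin2a by -0.20 (SE 0.09) and Grin1 by -0.07 (SE 0.02), while Grin3a had 0.13 (SE 0.07), Grin2c 0.06 (SE 0.04) and Grin3b 0.02 (SE 0.06). Choroid plexus markers ran high in libraries of every group (Ttr from 281 to 136652 normalised counts). Their slopes were -0.017 for Grin1 (SE 0.0067), -0.05 for Grin2b (SE 0.03) and 0.07 for Grin2d (SE 0.04). Those of the other members lay between -0.01 for Grin2a and 0.02 for Grin3b. The part of either tissue in the group differences was not tested.

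Grin2c, which encodes GluN2C, had 6610, 4526, 4399, 5711 and 5678 normalised counts in Prevention and 4301, 4214, 5570, 5232 and 4104 in Treatment. OVX ran from 4522 through a median of 4817 to 5625, and SHAM from 4925 through 5178 to 6247. All groups overlapped, and none of its 4 changes passed, the widest being -0.20 in Treatment minus Prevention (adjusted p = 0.918). With the library set as a term that change was -0.32 (SE 0.13, unadjusted p = 0.0218 and adjusted p = 0.9999 by limma). In that fit 630 of 16119 features had an unadjusted p under 0.05. Within the high set, with 2 Treatment libraries, the change was -0.32 (SE 0.15, unadjusted p = 0.0632 by limma). There Prevention replicates 1 and 4, at 6610 and 5711, have a thalamic score above 9, and both Treatment libraries lie below it. Over 15 fits other than leaving out 1 library the change ran from -0.32 to -0.10. Without the 5 libraries of high thalamic score, Grin2c averaged 4867 ± 705 in Prevention (n = 3) and 4547 ± 687 in Treatment (n = 4). Astrocyte markers overlapped likewise, their sum running from 49664 to 58208 in Prevention, 48040 to 60896 in Treatment, 39294 to 57050 in OVX and 46245 to 53956 in SHAM.

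Grin3a, which encodes the GluN3A subunit of immature synapses, had 286, 245, 271, 414 and 280 normalised counts in Prevention and 368, 284, 436, 334 and 247 in Treatment. OVX ran from 238 through a median of 334 to 437 and SHAM from 249.5 through 332 to 433. Its changes lay between -0.13 in Prevention minus OVX (SE 0.16) and 0.15 in Treatment minus Prevention (SE 0.17), and none passed. Grin3b, which encodes GluN3B, best known from motor neurons, had 343, 243, 315, 247 and 246 in Prevention and 259, 321, 275, 244 and 242 in Treatment. OVX ran from 271 through 329.6 to 375, and SHAM from 249.6 through 319 to 423. Both E2 groups had medians below those of the vehicle groups, 247 in Prevention and 259 in Treatment against 329.6 in OVX and 319 in SHAM, and the ranges overlapped. In Prevention minus OVX its change was -0.22 (SE 0.12, adjusted p = 0.332).

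The spread of the GluN2A, GluN2B and GluN2D genes was wide for their level. On the log2 scale the SD within groups was 0.39 for Grin2a, 0.31 for Grin2b and 0.42 for Grin2d, against 0.08 for Grin1. Among features with a mean within 2-fold of their own, 99.3% had a smaller SD than Grin2a, 98.0% a smaller one than Grin2b and 97.4% a smaller one than Grin2d. For Grin2c the share was 85.9%, for Grin3a 83.3% and for Grin3b 63.9%.

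Proteins that supply, anchor or follow the receptor were described from a list of 43 genes, of which 41 were tested. In OVX minus SHAM 0 passed and 5 had an unadjusted p under 0.05, all lower in OVX, where 3.37% of all features were lower and 2.88% higher at that level, and 33 of 41 changes were negative (median -0.07, beside 0.0043 over all features). Camk2a, the kinase that docks on GluN2B, averaged 58219 ± 7593 normalised counts in OVX and 69618 ± 10820 in SHAM (-0.25, adjusted p = 0.795). Lin7c, a PDZ scaffold of receptor transport, averaged 736 ± 40.0 in OVX and 825 ± 104 in SHAM (-0.16, adjusted p = 0.795).

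In Prevention minus OVX 0 of the 41 passed, where 0.304% of all features did, and 5 were higher and 4 lower at an unadjusted p under 0.05, beside 10.1% and 8.56% of all features. The median was 0.02, with 24 positive changes. Csnk2b, the regulatory subunit of casein kinase 2, which phosphorylates GluN2B, averaged 2156 ± 97.8 in Prevention and 2530.3 ± 239 in OVX, with no overlap (-0.23, adjusted p = 0.0773). Of all features, 0.664% had Prevention below OVX with no overlap. Ppp1r9b, spinophilin, which targets a phosphatase to spines, averaged 43871 ± 4695 in Prevention and 37154 ± 3167 in OVX (0.24, adjusted p = 0.111). Gipc1, a PDZ protein of receptor trafficking, averaged 1838 ± 44.7 in Prevention and 2057 ± 176 in OVX (-0.16, adjusted p = 0.114).

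In Treatment minus OVX 0 of 41 passed, with 0 higher and 2 lower at an unadjusted p under 0.05, beside 4.1% and 3.09% of all features. The 2 were Csnk2b, 2249 ± 252 in Treatment and 2530.3 ± 239 in OVX (-0.17, adjusted p = 0.653), and Gipc1, 1890.0 ± 104 in Treatment and 2057 ± 176 in OVX (-0.12, adjusted p = 0.690). Dlg2, the PSD-93 scaffold, averaged 4410.0 ± 483 in Treatment and 3830.4 ± 631 in OVX (0.21, adjusted p = 0.690). In Treatment minus Prevention 0 passed and 0 had an unadjusted p under 0.05, beside 0% and 5.38% of all features. There the smallest p belonged to Ppp1r9b (-0.17, adjusted p = 0.914), Apba1, a Lin7 partner in vesicle transport (-0.11, adjusted p = 0.952), and Srr, the serine racemase that makes the co-agonist D-serine (0.10, adjusted p = 0.952).

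Genes most like each member were found by Pearson r of log2 values over the 24 libraries with group means subtracted, among 13481 named features with a mean of at least 50. These are the highest of many correlations between libraries that share depth, set and tissue makeup, so they are a description. Grin2a went most closely with Cacna1e, an R-type calcium channel (r = 0.96, rho = 0.92), Slk, a kinase (0.92, rho = 0.85), and Frmpd4, a postsynaptic scaffold (0.91, rho = 0.85). Its r with Cacna1e was 0.97 in the low set alone. Grin2d went with Hcn4, a pacemaker channel (r = 0.95, rho = 0.82), Agt, angiotensinogen (0.95, rho = 0.87), and Kcnh2, an ERG potassium channel (0.95, rho = 0.88). Without the 5 libraries of high thalamic score these 3 values for Grin2d were 0.75, 0.78 and 0.79.

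Grin1 went with Kctd13 (r = 0.89, rho = 0.91) and Itpka, an inositol trisphosphate kinase of spines (0.88, rho = 0.85). Grin2b went with Usf3 (r = 0.87), Srgap3 (0.87) and Aff3 (0.87). For Grin2c the leading genes were Slc9a3r1 (0.75), Kirrel2 (0.71) and Hpdl (0.70), for Grin3a Itga6 (0.81), Ahi1 (0.81) and Dscam (0.80), and for Grin3b Ano6 (0.76) and Pgm5 (0.74).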

How the data were processed

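The authors' deposited table holds normalised counts, a signal per gene and library in arbitrary units. The submitters' processing notes name kallisto 0.43 and DESeq2, without a version; no build, annotation or filter is named in them. The depth of a library was taken as its column sum over the size of 1 read, read from the densest step among low values. This estimate is rough and was not checked against read totals. The normalised values are not whole counts, so they were fitted on a log scale. Libraries were grouped by title, and no 2 had identical values.

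From there, limma 3.58.1 (under R 4.3.3) was run on log2(value + 1), taking all 24 libraries together with 1 mean per group. Its empirical Bayes step used a trend of variance on the mean. In each of 4 contrasts p-values were adjusted by Benjamini and Hochberg over the 16119 features whose mean was at least 10. Fold changes on this scale understate changes of low genes. Unadjusted p refers to a threshold of 0.05. The pipeline was tested on simulated data. The members, lists and library sets were chosen with earlier results of these data known. Named beside the 7 members are, per comparison, the passing partner genes or otherwise the 3 with the smallest p, and the 3 most correlated genes per member. Of the 43 partner genes, 2 were not analysed here. Some genes that this rule names are not reported here. Replicate numbers did not pair libraries. Alternatives were another pseudocount, filter, scaling or set of groups, a replicate block, the set, thalamic and choroid terms, and leaving out libraries. Plots used matplotlib 3.10.9 (Python 3.11.15).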

Additional observations from a re-analysis of the deposited data

Results flagged for a closer look

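Within each group, the highest and lowest library of each member was compared with its nearest neighbour on the log2 scale by Dixon's criterion. Of 28 groups, 5 held a library far from the others, where chance gives about 1 in 20. The 28 checks draw on the same 24 libraries, so they are not independent. Grin2b in Prevention replicate 3 was 5850 normalised counts, against 3189 to 3497 in the other Prevention libraries. Grin2d in Treatment replicate 6 was 946, against 495 to 559, and Grin2d in SHAM replicate 5 was 1092, against 476 to 626; both libraries have a thalamic score above 9. Grin2a in SHAM replicate 5, flagged for Grin2d as well, was 3013, against 4260 to 5448. Grin2c in SHAM replicate 6 was 6247, against 4925 to 5359.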

How the results depend on the processing

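In Prevention minus OVX the 49 genes called became 97 with a mean of at least 100, 5 with the 2 groups fitted alone, 532 with the thalamic score and 257 with the choroid score as a covariate. With the library set as a term, with set and score, and without the 5 libraries of high thalamic score, limma called 0, with 573, 727 and 2172 at an unadjusted p under 0.05. Without Prevention replicate 3 and Treatment replicate 1 together it called 25. With 1 library left out the count ran from 1 to 481. It moved over 1.5 times without Prevention replicates 1 (4), 2 (18), 3 (1) or 4 (13), Treatment replicate 1 (180), OVX replicates 1 (11), 2 (10), 3 (12), 4 (168), 5 (96), 6 (24) or 7 (481), or SHAM replicates 4 (21), 5 (85) or 6 (14). In Treatment minus Prevention the 0 became 2 with a pseudocount of 8 and 3 with the thalamic score, and ran from 0 to 11 with 1 library left out (8 without Treatment replicate 1, 11 without replicate 2, 2 without OVX replicate 7). The counts of OVX minus SHAM and Treatment minus OVX were 0 in every fit run. The causes were not tested.

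With the replicate block, whose numbers did not pair libraries (same-numbered deviations correlated between -0.40 and 0.37), 3 genes were called in Prevention minus OVX, and Grin3b in Treatment minus Prevention was 0.0090; it changed no call of a member.

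In Prevention minus OVX, Grin2b also passed with a mean of at least 100 (adjusted p = 0.0473), with the choroid score (0.0276), and without Treatment replicate 1 (0.0286) or 6 (0.0481), OVX replicate 4 (0.0416), 5 (0.0394) or 7 (0.0248), or SHAM replicate 5 (0.0463). Over 14 fits other than leaving out 1 library its adjusted p ran from 0.00872 to 0.999. Grin2a also passed without OVX replicate 7 (0.0465). Reversed signs, all of changes that did not pass, were Grin1 in Prevention minus OVX with quantile normalisation (-0.037), Grin2c (-0.066) and Grin2d (-0.049) there without the 5 libraries and Grin2d with set and score (-0.13), Grin3a in Treatment minus OVX without the 2 libraries named above (-0.018), and Grin3b in Treatment minus Prevention with the set as a term or within the high set (0.063 each), with set and score (0.091), without the 5 libraries (0.035) and without the 2 libraries (0.0097). With 1 library left out, Grin3b ran from -0.034 to 0.093 in OVX minus SHAM and from -0.12 to 0.030 in Treatment minus Prevention, and Grin3a from -0.078 to 0.13 in Treatment minus OVX. The members' changes kept their direction and side of the threshold in 384 other values under alternative fits and in 656 with 1 library left out. Intervals here reflect the spread between libraries, which includes counting error, and no separate term for counting error was fitted.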

Other observations

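The span of Grin2a and Grin2b was set beside all features after their values were seen. Spans came from the GRCr8 assembly, which may not be the build behind the values. A span was found for 89.4% of tested features, and 278 span at least as much as Grin2a. In OVX minus SHAM, 24.5% of these had a positive change (median -0.07), beside 53.3% of the 14133 shorter features. In Prevention minus OVX, 82.0% were positive (median 0.12), beside 48.9%. With the library set as a term the share in Prevention minus OVX was 62.6% (median 0.06). In Treatment minus OVX, 83.8% were positive (median 0.10), beside 47.5%, and with the set as a term 80.2% (median 0.08). In Treatment minus Prevention the share was 41.4% (median -0.014), beside 49.1%, and with the set as a term 54.0% (median 0.015). The first 3 comparisons share the OVX libraries, and 0 of the 278 were called in any of the 4 comparisons. The part of span in the changes of Grin2a and Grin2b was not tested.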
